A study of Mus musculus with 2 samples.

Results

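The p53-high and p53-low cells described here are the highest- and lowest-scoring cells of 1 single-cell RNA library of mouse embryonic stem cells treated with Idoxuridine. Each cell was scored by the share of its unique molecular identifiers (UMIs, which count each captured transcript once) that fell in 8 p53 target genes, Cdkn1a, Mdm2, Ccng1, Trp53inp1, Phlda3, Sesn2, Zmat3 and Perp. Of 742 Idoxuridine cells, 648 passed a minimum depth and were ranked; the shallowest of them had 23504 UMIs and the deepest cell left out 23473. The ranked cells were cut into 4 score groups of 162 cells each, and the highest group (p53-high) was compared with the lowest (p53-low) over all other genes. The cells were thus chosen by the summed levels of these 8 genes, measured in the same cells as the comparison, so the levels of the 8 score genes are the basis of the choice and not a result.

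The series holds 1 library per treatment, with 1553 cells in all. Both libraries are from E14, a male mouse embryonic stem cell line, grown without feeder cells on gelatin in 2i/LIF (2 kinase inhibitors and leukaemia inhibitory factor) and given DMSO, the solvent, or Idoxuridine, a thymidine analogue that is built into new DNA, for 24 h. For the dose the treatment label has 10 µM and a protocol field 10 mM, a conflict that was not resolved here; the strain label is C57BL/6. Cells of 1 library are not replicates, so no test was possible and no p-value is given. Values called an interval, or given as a range after a CPM or a log2 ratio, are 95% intervals for the counting error of UMIs only. Those after shares of cells are 95% binomial intervals over the cells of 1 library.

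The transcription factor p53 is stabilised when DNA is damaged or replication is disturbed, and binds paired copies of a short consensus sequence near its target genes. Its targets arrest the cell cycle, repair DNA, alter metabolism, start apoptosis and, through Mdm2, feed back to have p53 degraded. In embryonic stem cells p53 is abundant, cells spend little time in G1, and p53 activity is known to be linked to differentiation and death as well as arrest.

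Windows before an annotated start of 5 genes are shown because the score rests on targets of a factor that binds DNA. Only windows that hold a decamer were eligible to be shown, so its presence in them was fixed by that choice. The capitals mark each p53 consensus decamer, a palindromic motif that was searched on both strands, in the 250 bases before the gene start (RefSeq, GRCm38.p6, 5′ to 3′ on the gene's strand). The Cdkn1a window (chr17:29090729-29090978, plus strand) holds 2 decamers 12 bases apart. Mdm2 (chr10:117710759-117711008, minus strand), the held-out target Polk (chr13:96519188-96519437, minus strand) and Ddit4l (chr3:137623422-137623671, plus strand), which was not in any p53 list, hold 1 each. Sesn1 (chr10:41887189-41887438, plus strand) is shown as a p53 target with 1 decamer and a log2 ratio of p53-high over p53-low cells of -0.02. The starts used for Polk, Ddit4l and Sesn1 lie inside the longer gene bodies of GENCODE M21.
Cdkn1a: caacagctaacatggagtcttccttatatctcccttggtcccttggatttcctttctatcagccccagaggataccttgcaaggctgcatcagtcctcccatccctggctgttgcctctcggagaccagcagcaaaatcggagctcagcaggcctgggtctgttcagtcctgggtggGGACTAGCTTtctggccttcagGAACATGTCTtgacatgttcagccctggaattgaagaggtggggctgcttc
Mdm2: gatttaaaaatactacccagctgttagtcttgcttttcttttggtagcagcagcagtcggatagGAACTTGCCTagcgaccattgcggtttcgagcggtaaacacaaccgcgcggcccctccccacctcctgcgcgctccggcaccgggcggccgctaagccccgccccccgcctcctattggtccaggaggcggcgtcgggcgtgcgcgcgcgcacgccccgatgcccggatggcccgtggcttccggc
Polk: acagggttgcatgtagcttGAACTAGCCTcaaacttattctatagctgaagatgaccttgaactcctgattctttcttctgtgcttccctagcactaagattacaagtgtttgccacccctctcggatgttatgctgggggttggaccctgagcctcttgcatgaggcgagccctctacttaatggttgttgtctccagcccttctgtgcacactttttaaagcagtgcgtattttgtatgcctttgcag
Ddit4l: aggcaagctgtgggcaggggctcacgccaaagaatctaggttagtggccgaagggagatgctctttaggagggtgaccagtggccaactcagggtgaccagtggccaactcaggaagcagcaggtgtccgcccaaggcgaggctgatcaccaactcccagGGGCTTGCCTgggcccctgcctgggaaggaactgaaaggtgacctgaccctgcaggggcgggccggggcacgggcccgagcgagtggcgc
Sesn1: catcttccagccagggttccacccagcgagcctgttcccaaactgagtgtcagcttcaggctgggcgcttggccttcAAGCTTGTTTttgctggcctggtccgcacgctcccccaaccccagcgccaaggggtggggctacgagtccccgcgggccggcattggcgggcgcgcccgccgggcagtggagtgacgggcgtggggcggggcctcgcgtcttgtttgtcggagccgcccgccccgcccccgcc

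Within 250 bases before to 50 after the start, a decamer was found in 3 of the 5 score genes with a window. Over all genes with a window it was 2582 of 27025 (9.55%). Counted by single windows, of which a gene can have several, it was 2745 of 32851 (8.36%). Perp, Trp53inp1 and Zmat3 had no entry. Among held-out p53 targets, 14 of 52 with a window (26.9%) held a decamer. Among the genes counted in the comparison below it was 429 of 5484 (7.82%), among those higher in p53-high cells 33 of 310 (10.6%), and among those lower 7 of 110 (6.36%). A match is a description of these letters and not a binding site, and the score genes and held-out targets were chosen as known p53 targets.

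The score ran from 291 to 3722 CPM (UMIs per 1000000 UMIs, here of a cell). Its median was 751 CPM in the lowest score group, 1123 and 1512 CPM in the middle groups and 2088 CPM in the highest. The last p53-low cell stood at 970 CPM beside 972 in the next cell, and the first p53-high cell at 1758 beside 1756, with 37 and 55 cells within 5% of these limits. The sides are therefore ranges of a continuous measure and not cell types. With every cell thinned to the minimum depth, the mean was 32.7 score UMIs, with a Fano factor (variance over mean, 1 where counting alone sets the spread) of 6.07.

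**Figure D1:**
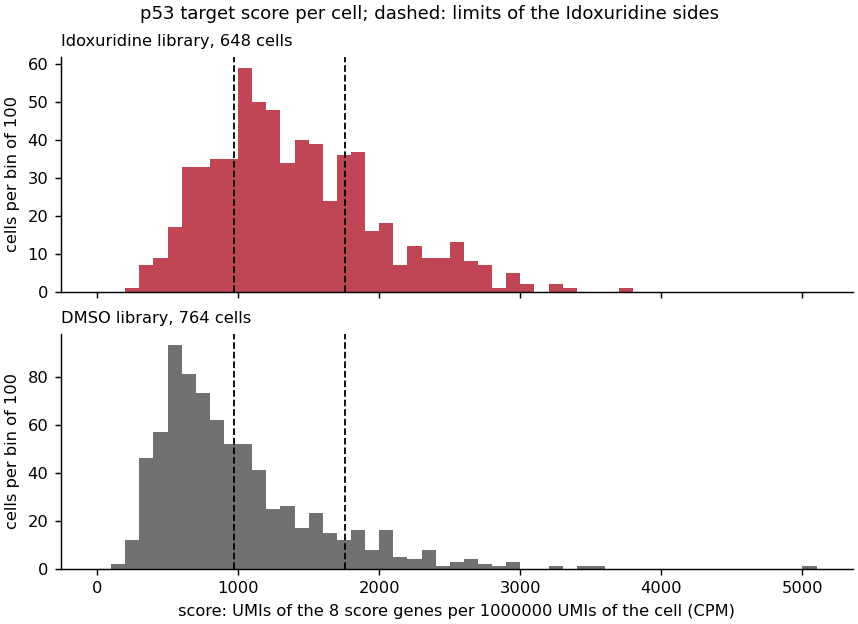
Distribution of the p53 target score, in CPM of the cell, in 648 Idoxuridine cells and 764 DMSO cells that passed the minimum depth; dashed lines mark the limits of the p53-low and p53-high Idoxuridine cells. The Idoxuridine distribution shows no gap at either limit, and 10.5% of DMSO cells lie at or above the upper limit.

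The sides differed in depth as well as in score. Median UMIs per cell were 42876 in p53-low cells, 43325 and 39838 in the middle groups and 33595 in p53-high cells. The median share of UMIs from nuclear-retained RNAs was 0.400%, 0.455%, 0.516% and 0.625% from the lowest to the highest score group, and that of mitochondrial genes 2.65%, 2.79%, 2.84% and 2.87%. No ranked Idoxuridine cell exceeded 10% mitochondrial UMIs. The score groups were therefore also formed inside 4 bins of depth and inside 4 bins of the nuclear-retained share, and values from these are given beside the main counts, the summed held-out targets and some of the lists and genes below. Markers of pluripotent cells summed to 3726 CPM (over all cells of a side) in p53-high and 3682 CPM in p53-low cells, with 10 of 10 markers detected. Summed markers of other cell types were 23.1 and 24.8 CPM for primitive endoderm, 235 and 278 for trophectoderm, 31.3 and 39.3 for mesendoderm, 216 and 209 for neuroectoderm, 13.99 and 13.88 for fibroblasts (Postn at 0) and 5.90 and 13.9 for 2-cell-like cells, of whose 8 markers 6 were at 0 in both sides. Most of the neuroectoderm sum was Tubb3, with 1182 UMIs in p53-high and 1513 in p53-low cells. Most of the trophectoderm sum was Krt8 (687 and 1172 UMIs) and Tfap2c (409 and 514).

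All 8 score genes climbed step by step over the score groups. The choice of cells fixes the climb of their sum, of which each gene is a part, so these levels describe the choice. From the lowest to the highest score group, Mdm2, the ubiquitin ligase that degrades p53, stood at 73.8, 117, 168 and 311 CPM. Cdkn1a, which encodes the cyclin-dependent kinase inhibitor p21, stood at 137, 205, 272 and 361 CPM. Phlda3, a repressor of Akt signalling, stood at 214, 356, 477 and 612 CPM, and Ccng1, encoding cyclin G1, at 145, 213, 269 and 401 CPM. Perp, a membrane protein of desmosomes and apoptosis, stood at 29.5, 52.6, 77.5 and 156 CPM. Trp53inp1, a p53-induced nuclear protein, stood at 34.1, 56.3, 77.2 and 130 CPM.

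To see whether single score genes moved with the rest, each was left out and the cells were ranked on the other 7. The log2 ratio of the highest over the lowest score group was then 1.85 for Perp (1.64 to 2.05), 1.70 for Trp53inp1 and 1.68 for Mdm2. It was 1.08 for Phlda3, 1.05 for Ccng1, 0.99 for Zmat3, an RNA-binding zinc finger protein, and 0.89 for Cdkn1a (0.79 to 1.00). Sesn2, a stress sensor that restrains mTORC1, had the lowest value, 0.79 (0.63 to 0.95). Each score gene thus stood higher in cells ranked by the other 7, although the genes were chosen as a set known to move together. Sesn2 overlaps Gm12981 on the same strand, so its UMIs may include reads of that gene.

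Outside the score, 7050 genes had at least 200 UMIs over both sides. Of these, 383 stood at least 0.5 log2 higher in p53-high cells with separate Poisson intervals (5.43%), and 145 stood at least 0.5 log2 lower (2.06%); in what follows, "higher" and "lower" as counts of genes mean these limits. The median log2 ratio over all genes counted was -0.01, and 69.7% of them lay within 0.25 log2 of 0. At a limit of 1 log2, 84 genes were higher and 5 lower. Of the 383 higher genes, 293 (76.5%) were ordered over all 4 score groups, and of the 145 lower genes 88 (60.7%) were. In 8 higher and 2 lower genes, 1 cell gave over 10% of a side's UMIs. A gene near the minimum of 200 UMIs can pass it through the side where it is high. Among the extreme genes named below, Pvrl4, Obox6 and E2f8 (149 UMIs in p53-low and 56 in p53-high cells) were near this minimum. Each had most of its UMIs on the side where it is high. With TMM scaling the counts were 327 higher and 188 lower, so the share of calls that were higher went from 72.5% to 63.5%. With score groups formed inside depth bins, 287 genes were higher and 116 lower, and inside nuclear RNA bins 259 and 90.

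**Figure D2:**
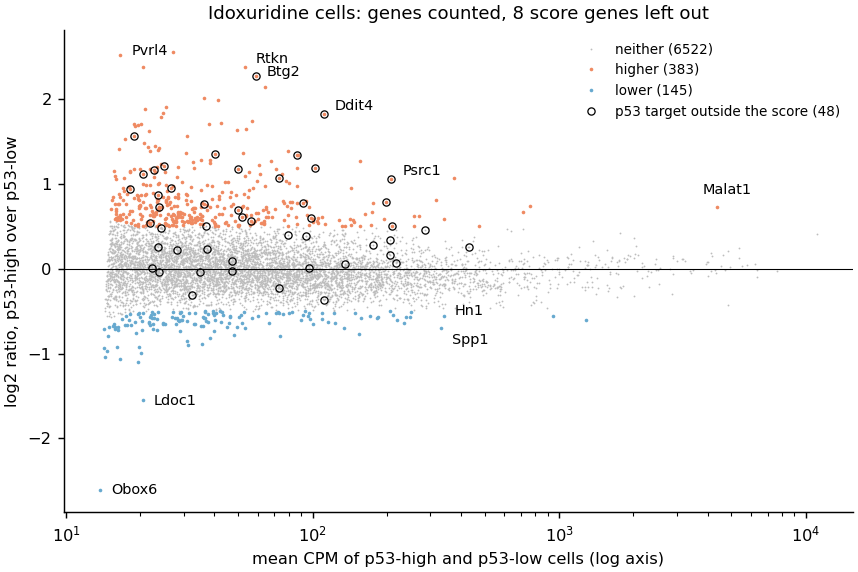
Each point is 1 of the 7050 genes counted, placed by its mean CPM over p53-high and p53-low Idoxuridine cells (log axis) and its log2 ratio, p53-high over p53-low; black circles mark 48 p53 targets outside the score. The 383 higher genes reach 2.56 log2 and the 145 lower genes -2.61 (Obox6), and the black circles lie mostly above 0.

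Among p53 targets that were not used in the score, 25 of 48 with at least 200 UMIs stood higher in p53-high cells and 0 lower, beside 5.43% and 2.06% of all genes counted. The list held 75 genes, of which 73 were found in the table and 65 had at least 50 UMIs; of these 65, 55 had a log2 ratio above 0 and the median was 0.60, from -0.36 to 3.16. A low target can pass a minimum of UMIs through the side where it is high, so these counts describe the members that passed and not all 75. Summed over the 73 found, held-out targets stood at 5148 CPM (5091 to 5206) in p53-high and 3590 CPM (3548 to 3632) in p53-low cells, a log2 ratio of 0.52. That ratio was 0.45 with score groups inside depth bins, 0.45 inside nuclear RNA bins, and 0.50 when the score and the levels came from disjoint random parts of each cell's UMIs.

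Cell by cell, after thinning to the minimum depth, the median was 84 held-out UMIs in p53-low cells (lowest cell 50, highest 130), 96 and 102 in the middle groups and 119.5 in p53-high cells (lowest cell 72, highest 189). Of the p53-high cells, 97.5% lay above the p53-low median, while the ranges of the sides overlapped.

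**Figure D3:**
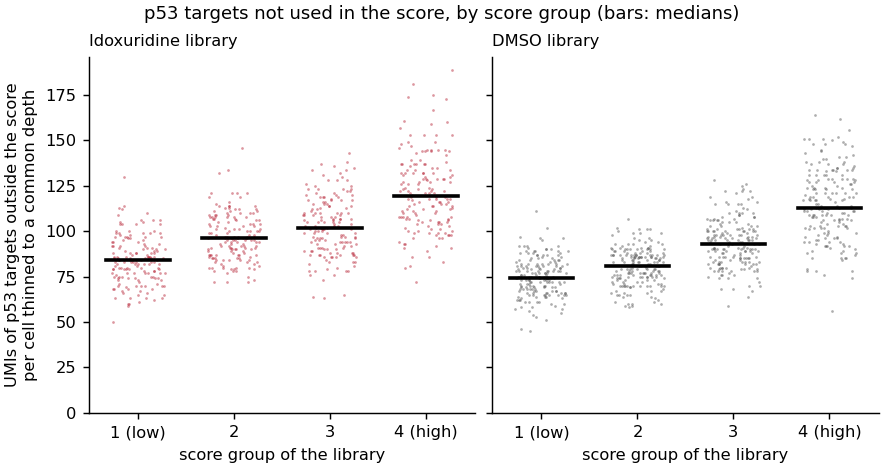
UMIs of the p53 targets outside the score in each cell, thinned to the minimum depth, by score group of the library; each point is 1 cell and the bars are medians. Idoxuridine medians go from 84 to 119.5 and DMSO medians from 74 to 113, with overlapping ranges.

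Of the targets that arrest the cycle or feed back on p53, 7 of 12 counted were higher and 0 lower. Btg2, an antiproliferative cofactor, stood at 20.2, 32.6, 48.5 and 97.6 CPM from the lowest to the highest score group, a log2 ratio of 2.27 (2.01 to 2.53). Each score group was above the one before it, and the ratio was 1.97 inside depth bins and 2.03 inside nuclear RNA bins. Plk2, a kinase induced by stress, stood at 48.9, 68.7, 82.2 and 124 CPM (1.34), and Mdm4, which binds and inhibits p53, at 47.2, 67.3, 90.2 and 98.9 CPM (1.07, interval 0.88 to 1.26). Ccnd2, encoding cyclin D2, had a log2 ratio of 1.57, Gtse1, a microtubule protein that restrains p53, 0.77, Gadd45a, a stress sensor of arrest and repair, 0.61, and Rchy1, a further ubiquitin ligase of p53, 0.60. Sfn, encoding 14-3-3 sigma, stood at 133, 138, 136 and 138 CPM and hardly differed (0.06, interval -0.08 to 0.19). Ppm1d, the phosphatase that switches off p53 signalling, lay at 0.50 (0.24 to 0.76), just under the limit.

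Of the death genes, 5 of 10 counted were higher and 0 lower. Bbc3, which encodes the BH3-only protein Puma, stood at 62.5, 97.8, 119 and 143 CPM over the score groups, a log2 ratio of 1.19 (1.03 to 1.36), or 1.12 inside depth and 1.15 inside nuclear RNA bins. Apaf1, the core of the apoptosome, had 1.21, Pmaip1, encoding Noxa, 0.94, Ei24, a membrane protein of the endoplasmic reticulum, 0.79, and Tnfrsf10b, a death receptor, 0.54. Bax, the pore-forming effector, was abundant on both sides at 392 and 470 CPM (0.26), and the nuclease gene Aen had 0.46. Bak1, the other effector, stood at 125, 109, 102 and 97.4 CPM, a log2 ratio of -0.36 (-0.51 to -0.21). The receptor gene Fas had only 14 and 45 UMIs, too few to be counted, with a log2 ratio of 2.06 (1.17 to 3.04). Among 25 apoptosis genes that are not p53 targets, 12 were counted and 0 were higher or lower, with a median of -0.08. Of all genes counted, 5.43% were higher and 2.06% lower, so 0 of 12 does not set this list apart.

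Of the repair and nucleotide targets, 1 of 4 counted was higher. Ercc5, the nuclease XPG of nucleotide excision repair, stood at 14.01, 15.2, 19.8 and 31.4 CPM (1.16, interval 0.81 to 1.52). The window shown above for Polk, a translesion polymerase, lies inside its longer annotated gene body. Polk stood at 5.71, 9.56, 14.1 and 23.4 CPM, with 44 and 139 UMIs, below the minimum to be counted, and a log2 ratio of 2.04 (1.54 to 2.56). Xpc, a damage sensor of excision repair (0.09), and the sliding clamp gene Pcna (-0.23) were among those called neither.

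Of the metabolic and autophagy targets, 5 of 13 counted were higher. Ddit4, an inhibitor of mTORC1, stood at 48.7, 73.2, 116 and 173 CPM, a log2 ratio of 1.83 (1.66 to 2.01), or 1.79 inside depth and 1.76 inside nuclear RNA bins. Lpin1, a phosphatidate phosphatase, had 1.12, the proline catabolism gene Aldh4a1 0.73, Sco2, needed to assemble cytochrome oxidase, 0.69 (it overlaps Tymp on the same strand), and Ulk1, the kinase that starts autophagy, 0.56. Tigar (0.01, with a sign that turned under TMM scaling), Gls2 (-0.03) and Sat1 (0.07) lay near 0, and so did Sesn1, with 50 and 38 UMIs (-0.02, interval -0.67 to 0.62).

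Of the targets with other roles, 7 of 9 counted were higher. Psrc1, a microtubule protein, stood at 135, 172, 207 and 282 CPM (1.06, interval 0.95 to 1.18). Dcxr, a carbonyl reductase, had 1.35, Rap2b, a small GTPase, 1.18, Abhd4 0.96, Notch1, a receptor of cell-cell signalling, 0.87, Gdf15, a secreted stress hormone, 0.76, and Ckap2, a spindle protein, 0.50. Tap1, a peptide transporter of antigen presentation that overlaps Psmb9 on the other strand, had 17 and 117 UMIs and the highest log2 ratio among held-out targets with at least 50 UMIs, 3.16 (2.42 to 3.99), but was below the minimum to be counted. Also below it were Eda2r (1.51) and Cd80 (1.56).

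Trp53 itself did not follow its targets. It stood at 446, 444, 460 and 430 CPM over the score groups, a log2 ratio of -0.05 (-0.13 to 0.02). Of 12 counted genes that form or act on p53, Trp53bp1, a double-strand break adaptor, was higher (0.57) and the checkpoint kinase gene Chek1 lower (-0.53), and the other 10 were neither. These counts stand beside 5.43% higher and 2.06% lower over all genes counted. The related factor gene Trp73 had 36 and 94 UMIs (1.76), but it overlaps the antisense gene Trp73os.

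Among the 12 genes with the highest ratios were 9530053A07Rik (2.56), Pvrl4 (2.52), Rtkn (2.38), Zfp365 (2.38), Btg2, Serpine2 (2.14), Ahnak2 (2.01), Ddit4l (1.99), Azin2 (1.90), Akr1b10 (1.88) and Ddit4. Of those named, only Btg2 and Ddit4 were in the p53 lists used here. Pvrl4 encodes the adhesion protein nectin-4 and stood at 4.93, 7.30, 10.9 and 28.3 CPM over the score groups, from 38 UMIs in p53-low and 168 in p53-high cells. Rtkn, encoding rhotekin, at chromosome 6, 83135463 to 83152579 (GRCm38), stood at 17.1, 28.6, 39.8 and 89.3 CPM. It overlaps Wdr54 on the other strand, and Azin2 likewise overlaps Gm15904. Serpine2, a secreted inhibitor of serine proteases at chromosome 1, 79794197 to 79861180, stood at 23.6, 39.9, 48.8 and 104 CPM (interval of the log2 ratio 1.90 to 2.39), and its ratio was 1.95 inside depth and 2.03 inside nuclear RNA bins. Ddit4l, an mTORC1 inhibitor related to Ddit4 at chromosome 3, 137621612 to 137628333, stood at 16.6, 31.0, 34.3 and 65.9 CPM. In the named genes other than Akr1b10 each score group was above the one before it, and Akr1b10, an aldo-keto reductase gene, stood at 8.95, 16.2, 13.9 and 33.03 CPM.

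Among the 12 genes with the lowest ratios were Obox6 (-2.61), Ldoc1 (-1.54), Gata2 (-1.10), E2f8 (-1.03), Cdc42ep5 (-0.99), Spic (-0.97), Cdc25b (-0.93), Plekhf1 (-0.92), Krt42 (-0.92), Mid1ip1 (-0.90) and Pmel (-0.89). Obox6, an oocyte homeobox gene at chromosome 7, 15833241 to 15839678, stood at 23.6, 17.7, 15.0 and 3.88 CPM, from 182 UMIs in p53-low and 23 in p53-high cells (interval -3.30 to -1.98). Its ratio was -1.92 inside depth and -1.91 inside nuclear RNA bins, and that of Ldoc1 -1.41 and -1.31. Obox genes form a family of close copies, so its count is uncertain. Ldoc1, a retrotransposon-derived gene on chromosome X, 61709497 to 61710955, stood at 30.5, 20.1, 22.3 and 10.5 CPM. Gata2, a transcription factor of blood and trophoblast, stood at 26.7, 26.7, 22.8 and 12.5 CPM, and only the highest score group stood apart. E2f8, a repressor of the E2F programme, and Cdc25b, a phosphatase that activates mitotic kinases, overlap Gm2788 and Spef1 on the other strand, and Pmel overlaps Cdk2 and Dgka. In no score group did any of the named ones exceed 46.2 CPM, the level of Pmel in p53-low cells.

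**Figure D4:**
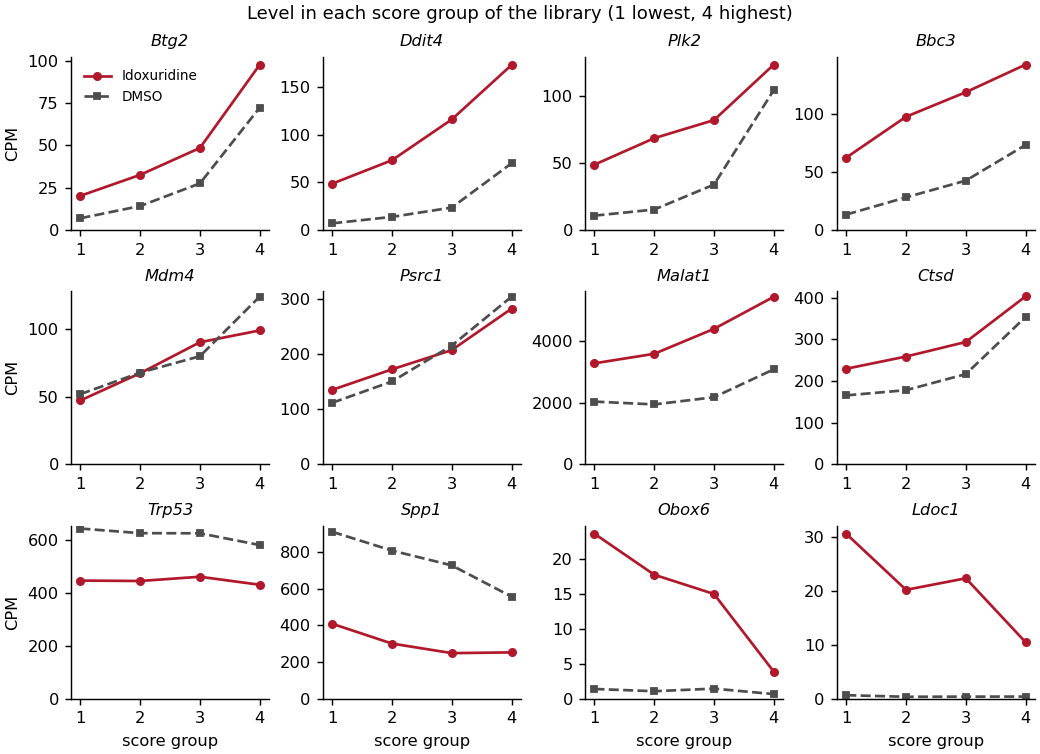
CPM of 12 genes (8 of them higher in p53-high Idoxuridine cells, Trp53, and 3 lower) in each score group of the library, for Idoxuridine (circles, solid) and DMSO cells (squares, dashed); each panel has its own axis from 0. The 6 held-out p53 targets climb in both libraries, Trp53 lies between 430 and 460 CPM in Idoxuridine cells, and Obox6 goes from 23.6 to 3.88 CPM there while it is at 1.45 CPM or less in DMSO cells.

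The medians of the G2/M, S phase and replication lists lay below 0. Counts of each list in this paragraph are to be read beside all genes counted, of which 5.43% were higher and 2.06% lower. Of 54 G2/M genes counted, 3 were higher and 2 lower. Their median log2 ratio was -0.25 (-0.16 inside depth and -0.26 inside nuclear RNA bins) and their sum 10933 CPM in p53-high against 12897 CPM in p53-low cells. The lower genes were Fam64a (-0.81) and Hn1, at 407, 358, 317 and 276 CPM over the score groups (-0.56, but -0.33 inside depth bins). The higher genes were Psrc1, Gtse1 and Ckap2, all 3 also p53 targets of the lists above. Of 41 S phase genes counted, 0 were higher and 4 lower, with a median of -0.20 (-0.24 inside depth and -0.10 inside nuclear RNA bins). These were E2f8, the origin licensing gene Cdc6 (-0.67), Ccne2, encoding cyclin E2 (-0.63), and Ung, the uracil-DNA glycosylase gene (-0.50). Of 33 replication genes 1 was lower, Cdc6, with a median of -0.12 (-0.15 inside depth and -0.02 inside nuclear RNA bins). Among 17 counted G1/S regulators, Ccnd2, the inhibitor genes Cdkn2b (0.98) and Cdkn1c (0.85) were higher and Ccne1 (-0.70) and Ccne2 lower. Below the minimum to be counted, the pocket protein genes Rb1 and Rbl2 had 39 and 96 UMIs (1.68) and 22 and 46 UMIs (1.44).

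Phases called at the common depth put 49.4% (41.4% to 57.3%) of p53-low and 42.0% (34.3% to 49.97%) of p53-high cells in G2/M, with 53.1% and 45.1% in the middle groups. These intervals overlap. Nearly all other cells were called S, and 0, 0, 2 and 3 cells G1, so the calls do not resolve G1. When the score groups were formed within phases, 391 genes were higher and 134 lower, close to the counts without it.

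General pluripotency genes lay slightly below 0. Counts in this paragraph are to be read beside all genes counted, of which 5.43% were higher and 2.06% lower. Of 13 general genes counted, 0 were higher or lower, with a median log2 ratio of -0.11. Of 14 members with at least 50 UMIs, 3 lay above 0, and the log2 ratio of their sum was -0.09 (-0.11 to -0.06). Sox2 (0.36) and Tdgf1 (-0.29), a Nodal co-receptor, were among the members farthest from 0. Pou5f1, the central factor of pluripotency, stood at 1621, 1590, 1689 and 1582 CPM over the score groups (-0.04). Of 20 naive-state genes counted, 1 was higher and 3 lower, with a median of 0.09, which was -0.01 inside nuclear RNA bins. The higher gene was Tbx3 (0.51), a naive-state transcription factor that overlaps the antisense gene Tbx3os1. Spp1, encoding osteopontin, stood at 409, 301, 249 and 253 CPM (-0.69, interval -0.78 to -0.60), the Akt co-activator gene Tcl1 at 61.1, 57.0, 43.7 and 37.9 CPM (-0.69), and Dppa3, a maternal factor that guards methylation, at 122, 90.0, 109 and 77.9 CPM (-0.65). Inside depth and nuclear RNA bins the ratios were -0.69 and -0.58 for Spp1, -0.59 and -0.48 for Tcl1, and -0.43 and -0.65 for Dppa3. Of 7 formative or primed genes counted, 0 were higher or lower (median -0.19).

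Of 6 nuclear-retained RNAs counted, 2 were higher, Malat1 and Neat1, and 4 neither. Their sum was 6751 CPM in p53-high against 4268 CPM in p53-low cells, most of it Malat1, with 32281 and 25290 UMIs. Malat1, a long noncoding RNA of nuclear speckles, stood at 3281, 3589, 4399 and 5440 CPM over the score groups (0.73, interval 0.71 to 0.75), and Neat1, the scaffold of paraspeckles, at 12.97, 15.9, 25.4 and 34.7 CPM (1.42). Inside nuclear RNA bins, which are set by this list's own share, the ratio of Malat1 and the list median were both 0.14 and Neat1 had 1.16, and inside depth bins Malat1 had 0.63. Of 22 lysosome genes counted, 5 were higher and 0 lower, beside 5.43% and 2.06% of all genes counted, with a median of 0.20 (0.20 inside depth and 0.15 inside nuclear RNA bins). Ctsd, the protease cathepsin D, stood at 230, 259, 294 and 404 CPM (0.81; it overlaps Gm49369 on the same strand), or 0.64 inside depth and 0.68 inside nuclear RNA bins, and Gaa, the acid glucosidase, had 0.99. Tpp1 (0.55), Atp6v0d1 (0.52) and Psap (0.51), lysosomal hydrolase, proton pump and activator genes, were the others.

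Imprinted genes had a median of 0.43 (0.45 inside depth and 0.33 inside nuclear RNA bins), with 2 of 14 counted higher, Cdkn1c and Peg10 (0.53), and 0 lower, beside the same 5.43% and 2.06%. Germline genes held down by promoter methylation had a median of 0.44 (0.31 and 0.46 inside these bins), with Hormad1, a meiotic chromosome protein, higher at 51.3, 61.3, 71.0 and 105 CPM (1.04), as 1 of only 5 counted. Genes of strand break repair and checkpoint (23 counted) had 0 higher and 0 lower and a median of -0.06, and so had nucleotide metabolism (20 counted, -0.10), polyamine synthesis (10, -0.23), glycolysis and hypoxia (16, -0.18), and the unfolded protein and integrated stress response (18, -0.19). Of 19 base excision repair genes, the scaffold gene Xrcc1 was higher (0.61) and Ung lower, with a median of -0.14. Ribosomal protein genes (76 counted, median 0.05) and mitochondrially encoded genes (12 counted, 0.10) had 0 in either direction.

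**Figure D5:**
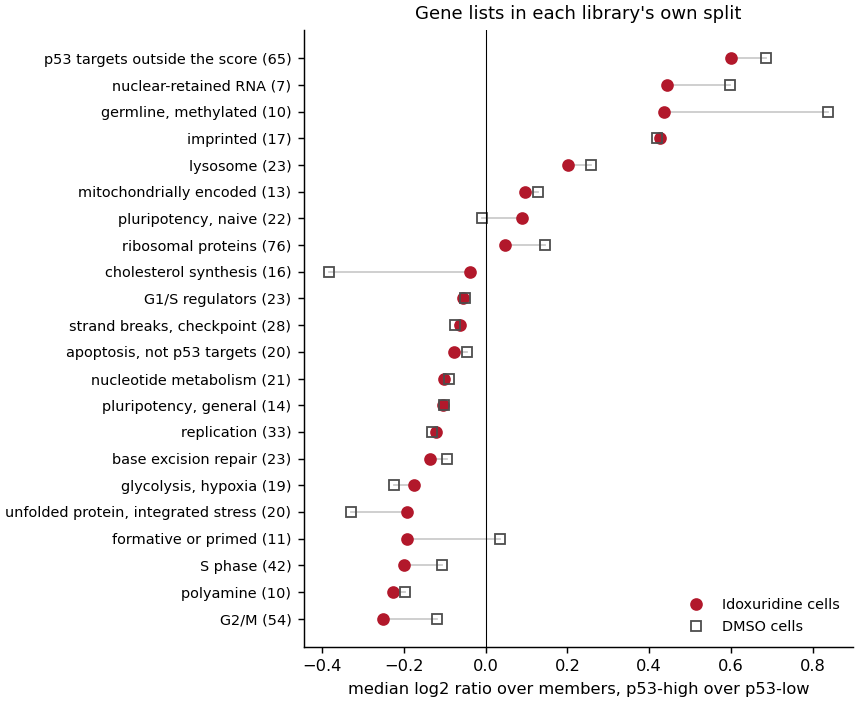
Median log2 ratio, p53-high over p53-low, of 22 gene lists over their members with at least 50 UMIs, in Idoxuridine cells (filled circles, their number of members in parentheses) and in DMSO cells split by their own score (open squares). The p53 targets outside the score have the highest Idoxuridine median, 0.60, and the G2/M genes the lowest, -0.25.

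The same score also split the DMSO cells, in a separate library with its own cells. Of 764 DMSO cells at the minimum depth, 191 fell in each score group, with score medians of 464, 692, 998 and 1632 CPM. By the Idoxuridine limits, 80 DMSO cells (10.5%, 8.39% to 12.9%) were at or above the upper and 467 (61.1%, 57.6% to 64.6%) at or below the lower limit. After thinning to a common depth these shares were 11.5% and 59.3%. Median depth differed between the DMSO score groups too, from 50325 UMIs in the lowest to 35904 in the highest.

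In the DMSO split, 532 of 7361 genes counted were higher (7.23%) and 104 lower (1.41%). With TMM scaling these were 402 and 229, so the share of calls that were higher went from 83.6% to 63.7%. Held-out p53 targets were higher for 30 of 49 counted and lower for 1, Bak1 (-0.59), with a median of 0.68 beside 0.01 over all genes counted. Btg2 stood at 6.98, 14.2, 27.6 and 72.3 CPM over the DMSO score groups, a log2 ratio of 3.37 beside 2.27 in Idoxuridine cells. Ddit4 stood at 7.08, 13.8, 23.6 and 70.0 CPM (3.31 beside 1.83), and Plk2 at 10.8, 15.4, 34.0 and 105 CPM (3.28 beside 1.34). For these 3 genes the DMSO level was below the Idoxuridine level in the lowest and in the highest score group. With Perp left out of the score, its log2 ratio was 4.33 in DMSO cells beside 1.85, from 2.80 CPM on the low side. Psrc1 had 1.44 beside 1.06, Bbc3 2.45 beside 1.19 and Serpine2 3.90 beside 2.14. With 1 library per treatment, the difference between the splits was not tested.

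Of 6799 genes counted in both libraries, 235 were higher in both splits. They are 69.3% of the 339 higher in Idoxuridine cells, while 6.88% of all 6799 were higher in DMSO cells. They are 50.2% of the 468 higher in DMSO cells, while 4.99% of all 6799 were higher in Idoxuridine cells. Lower in both were 29 genes, 23.8% of the 122 lower in Idoxuridine and 32.2% of the 90 lower in DMSO cells. Of all 6799, 1.79% were lower in Idoxuridine and 1.32% in DMSO cells. Spp1 and Tcl1 stood lower in p53-high cells of both libraries (-0.71 and -0.57 in DMSO). Obox6, Ldoc1 and Gata2 were at 1.77 CPM or less in the lowest and highest DMSO score groups, too low to be counted there. Dppa3 had 34 and 38 UMIs in the DMSO sides, a log2 ratio of 0.66 (-0.04 to 1.38). Cholesterol synthesis genes had a median of -0.38 in DMSO cells with 5 of 16 lower, beside -0.04 in Idoxuridine cells with 1 of 16 lower, Fdps (-0.51).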

How the data were processed

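Per the labels, libraries were made with 10x Genomics Chromium 3′ V2 chemistry. Per the submitters' processing notes, Cell Ranger 2, Seurat and mm10 were used, with no step given for each. The deposited files hold raw UMI counts of 27998 genes per cell, without normalization; the library totals were 30454626 (Idoxuridine) and 40818344 (DMSO) UMIs. The choice of barcodes and the annotation release are not given in the sources used here. Every barcode in the files was kept as a cell, no doublet caller was run, and 2 barcodes occur in both libraries, 1 of them in a p53-high or p53-low Idoxuridine cell.

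Cells below the minimum depth were left out (94 Idoxuridine, 47 DMSO). UMIs were summed over the cells of a side and scaled to CPM. Intervals (95%) are exact Poisson for CPM, conditional binomial for ratios and Clopper-Pearson for shares. Genes with at least 200 UMIs were counted at 0.5 log2 with separate intervals. List medians use members with at least 50 UMIs. Thinning was random (seed 11), and phases were called with scanpy 1.11.5. TMM was computed in Python 3.11.15. Coordinates are from GENCODE M21, where 98.7% of gene identifiers were found.

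The members, the score and the 41 gene lists (839 symbols, 6 not found) were chosen with earlier results of these data known. Named were the score genes, the 12 highest and 12 lowest genes, 4 or fewer members per list, the farthest from 0, and any held-out p53 target; Trp53, Chek1, Ccne1, Pou5f1, Psap, Peg10 and the 3 genes with opposite ratios were named after their values were seen. Some genes that this rule names are not reported here. The computations were tested on simulated data. Alternatives changed the scaling, the minimum UMIs, the size limit, the share of cells taken, the score genes, the depth, nuclear RNA, mitochondrial and phase bins, and the cells kept.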

Additional observations from a re-analysis of the deposited data

Results flagged for a closer look

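For 3 genes counted in both libraries, p53-high and p53-low cells differed in opposite directions with separate intervals in each library; the difference between the libraries was not tested. They are 2.46% of the 122 genes lower in the Idoxuridine split, while 6.88% of all 6799 genes counted in both libraries were higher in the DMSO split. Lgals1, encoding galectin-1, had a log2 ratio of -0.64 (-0.78 to -0.49) in Idoxuridine cells and 0.60 (0.34 to 0.87) in DMSO cells. Its level over the Idoxuridine score groups, from the lowest to the highest, was 151, 122, 119 and 96.9 CPM, and in the lowest and highest DMSO score group 21.5 and 32.6 CPM. Emp1, an epithelial membrane protein, had -0.59 (-0.93 to -0.25) and 0.70 (0.39 to 1.02). Cmtm3, a chemokine-like transmembrane protein gene, had -0.51 (-0.86 to -0.16) and 0.87 (0.46 to 1.28), from 8.48 to 15.5 CPM in DMSO cells. Of the 6799 genes counted in both libraries, 0 were higher in the Idoxuridine and lower in the DMSO split. Of all 6799, only 1.32% were lower in the DMSO split.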

How the results depend on the processing

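No gene that was called higher or lower in Idoxuridine cells and is named here changed direction under the alternatives run. Ratios of single genes in the DMSO split were not followed under them. The summed held-out targets stayed higher in p53-high cells of both libraries under each. In Idoxuridine cells the main counts are 383 higher and 145 lower genes and a held-out target log2 ratio of 0.52. With TMM scaling that ratio was 0.48. Minimums of 50, 500 and 1 UMIs gave 663, 147 and 767 higher genes, and the last 2 gave 73 and 237 lower. Limits of 0.25 and 1 log2 gave 741 and 84 higher, 603 and 5 lower. Sides of 216 cells gave 92 lower and a ratio of 0.43, of 64 cells 233 lower and 0.68, and of 324 cells 249 higher, 50 lower and 0.30. Bins of depth gave a ratio of 0.45, of nuclear RNA 90 lower and 0.45, and of mitochondrial share 0.49. Without Mdm2, Ccng1 or Phlda3 in the score it was 0.49, 0.49 or 0.47. Disjoint parts of the UMIs for score and levels gave 197 higher and 86 lower genes, with fewer genes reaching the minimum (5029). No minimum depth gave 258 lower and 0.56. In DMSO cells (532, 104 and 0.58), TMM gave 229 lower and 0.50, minimums of 50, 500 and 1 UMIs 866, 218 and 1077 higher, and limits of 0.25 and 1 log2 897 and 137 higher, 667 and 4 lower. Sides of 254 cells gave a ratio of 0.51, of 76 cells 275 lower and 0.80, and of 382 cells 353 higher, 19 lower and 0.37. Depth bins gave 343 higher and 0.49, nuclear bins 65 lower and 0.51, mitochondrial bins 0.55, and a score without Cdkn1a 0.62. Disjoint parts gave 279 higher, dropping the deepest 5% of cells 0.61, a minimum of 30000 UMIs 67 lower and 0.53, and no minimum 183 lower and 0.66. The cause of these shifts was not tested beyond what each alternative changes.

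Of the 145 genes lower in p53-high Idoxuridine cells, 78 (53.8%) were still called with depth bins and 64 (44.1%) with nuclear RNA bins; of the 383 higher genes it was 266 (69.5%) and 246 (64.2%). The medians of the heat shock and DNA methylation lists changed sign with TMM scaling, and no other list did so under either scaling. Over all 30 alternatives these medians changed sign under 9 and 10, and those of G1/S regulators and housekeeping genes under 5 each. The epithelial median changed sign under 2. Of 29 alternatives with a median, mesendoderm genes changed sign under 4 and 2-cell-like genes under 2. Lists that changed sign under 1 each were naive pluripotency, trophectoderm, fibroblast and apoptosis genes outside p53. Cholesterol synthesis, interferon and sensing, mitochondrially encoded and ribosomal protein genes also did so under 1 each. No paired analysis was possible because each treatment has 1 library. The precision of genes near 200 UMIs is set by depth: the interval of Pvrl4 (38 and 168 UMIs) spans 2.01 to 3.07.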

Other observations

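Single genes of lists not described above also differed between p53-high and p53-low Idoxuridine cells. Cryab, a small heat shock protein gene that overlaps Hspb2 on the other strand, was the only 1 of 12 heat shock genes counted that was higher (log2 ratio 1.64). Of 7 immediate early genes counted, Jun was higher (0.92); Egr1 (1.38) and Fos (1.14) had under 200 UMIs. The MHC class I subunit gene B2m was higher (0.57), as 1 of 8 interferon and sensing genes counted. Of 20 epithelial genes counted, 4 were higher, among them S100a6 (0.73) and Lgals3 (0.63), and 2 were lower. Of all genes counted, 5.43% were higher and 2.06% lower. The epithelial median was 0.05, and 13 of 24 members with at least 50 UMIs lay above 0. Esrp1 (-0.80) and Anxa1 (1.07), both under 200 UMIs, were the members farthest from 0.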
